A study of Mus musculus with 4 samples.

Results

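The genes described here are 35 genes of protein folding and the unfolded protein response in the endoplasmic reticulum (ER). They were taken from a list of 35 symbols, each represented by its probe with 1 gene symbol and the highest mean of the 4 arrays. All 35 were measured, among 19938 genes with such a probe, and all 35 passed the filter on low signal described below, as 12203 genes did. The cells were bone-marrow-derived macrophages of female BalbC mice, grown for 7 days with conditioned medium of L929 fibroblasts, which supplies the growth factor M-CSF. They were given lipopolysaccharide (LPS, a bacterial ligand of the receptor TLR4, 10 ng/ml) with zVAD (a caspase inhibitor, 50 µM) and Nec-1 (which inhibits RIPK1 kinase, 30 µM), given LPS with zVAD, given LPS alone, or left untreated. Each of the 4 conditions had 1 Affymetrix array. No difference below therefore has a replicate check, no spread between replicates could be measured, and no test was made. A gene counts as higher or lower only where 2 arrays differed by at least 2-fold (a log2 ratio of at least 1), a rule of size. Neither inhibitor was given without LPS, and Nec-1 was not given without zVAD. Treatment times, and whether mice were pooled, are not stated in the labels used here.

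Secreted and membrane proteins enter the ER through the Sec61 translocon and are folded there by chaperones, by disulfide isomerases and by lectins that read their sugar chains. Proteins that fail to fold are marked, passed back to the cytosol and degraded. When unfolded proteins build up, the sensors IRE1 (gene Ern1), ATF6 and PERK start the unfolded protein response. IRE1 splices the Xbp1 mRNA, so that it encodes an active transcription factor, and ATF6 is cut to release one. Both factors raise the genes of chaperones and of ER-associated degradation. In macrophages, TLR ligands are known to act on the same sensors. A gene-level array signal does not separate spliced from unspliced Xbp1 mRNA.

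The promoters of many of these genes carry short elements bound by ATF6 and XBP1, and these were looked up because many members are known targets of the response. RefSeq promoter windows of build GRCm38.p6, from 250 bases before to 50 bases after each gene's start, were on hand for 29 of the 35 members. The ER stress response element (ERSE, searched on either strand as CCAAT and CCACG with 9 free bases between them) was found in 8 of the 29 (27.6%), against 29 of 17492 protein-coding genes (0.166%). The shorter ERSE-II (ATTGG and CCACG with 1 free base between them) was found in 2 more, Herpud1 and Dnajb11, against 0.0629% of coding genes. The UPRE (TGACGTGG) was found in Sec24d alone of the 29, against 0.823% of coding genes. ERSE and ERSE-II both contain CCACG, and the reverse complement of UPRE begins with it. A match describes the letters in these windows only, and occupancy was not measured. The matches to the first 2 elements follow, in the direction of the gene and with 5 flanking bases, and the element is in capitals. In Calr, Creld2 and the second element of Hsp90b1 it lies on the opposite strand and therefore reads as its reverse complement.
Hspa5, chr2:34772025-34772043, plus strand: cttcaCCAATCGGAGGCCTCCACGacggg
Hsp90b1, chr10:86705638-86705656, minus strand: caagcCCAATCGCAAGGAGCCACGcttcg
Hsp90b1, chr10:86705533-86705551, minus strand: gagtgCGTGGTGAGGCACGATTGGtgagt
Pdia6, chr12:17266491-17266509, plus strand: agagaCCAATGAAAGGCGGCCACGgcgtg
Calr, chr8:84847075-84847093, minus strand: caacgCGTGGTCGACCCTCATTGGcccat
Canx, chr11:50325800-50325818, minus strand: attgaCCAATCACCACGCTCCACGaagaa
Dnajc3, chr14:118937827-118937845, plus strand: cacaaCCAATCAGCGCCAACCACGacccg
Creld2, chr15:88819520-88819538, plus strand: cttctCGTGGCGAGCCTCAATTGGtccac
Syvn1, chr19:6046532-6046550, plus strand: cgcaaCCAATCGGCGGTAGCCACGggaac
Herpud1, chr8:94386377-94386387, plus strand: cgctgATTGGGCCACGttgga
Dnajb11, chr16:22857852-22857862, plus strand: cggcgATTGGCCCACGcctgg

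Signals are gene-level values on a log2 scale as the authors deposited them, and the filter level was the median of all values in the table (log2 6.47). The 35556 probes had medians of 6.49 with LPS/zVAD/Nec-1, 6.46 with LPS/zVAD, 6.41 with LPS and 6.52 in untreated cells. All 10 measured macrophage markers, among them Csf1r, Adgre1, Cd68 and Lyz2, lay between 10.19 and 14.05 on every array. All 6 LPS response genes checked were at least 2-fold higher with LPS than in untreated cells. Markers of B cells and plasma cells, which have a large ER, were checked as well. Of the 9, the highest signal was 8.01 with LPS/zVAD/Nec-1, 7.96 with LPS/zVAD, 8.33 with LPS and 8.82 in untreated cells. Their log2 ratios of LPS/zVAD to untreated ran from -1.09 (Cd79b) to 1.92 (Irf4). Of the 9 markers 2 or 3 reached the filter level on each array, and Jchain lay between 4.42 and 4.56. The other marker lists that reached it in part were neutrophil (8 of 9 on each array), dendritic cell (2 or 3 of 8), T and NK cell (0 to 2 of 7), mast cell and basophil (1 of 6), stromal (4 or 5 of 8) and erythroid genes (0 or 1 of 3). In bulk RNA, fewer cells of a type and less RNA per cell cannot be told apart.

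Most of the ER folding genes had their lowest signal with LPS/zVAD, and most differences between the 4 conditions were under 2-fold. The LPS/zVAD array was the lowest of the 4 for 26 of the 35 members (74.3%), against 37.1% of all filtered genes and 40.2% of the 5637 filtered genes whose mean signal lay in the members' range. The untreated array was the highest of the 4 for 22 members (62.9%), against 44.6% of all filtered genes. The whole range over the 4 arrays ran from 0.05 (Hspa5) to 1.57 (Sdf2l1) on the log2 scale, with a median of 0.55. Because this count takes the extreme of 4 single arrays, it depends on the scaling of each array. It was 23 to 27 of 35 under the other scalings, against 30.5 to 35.7% of all genes.

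**Figure D1:**
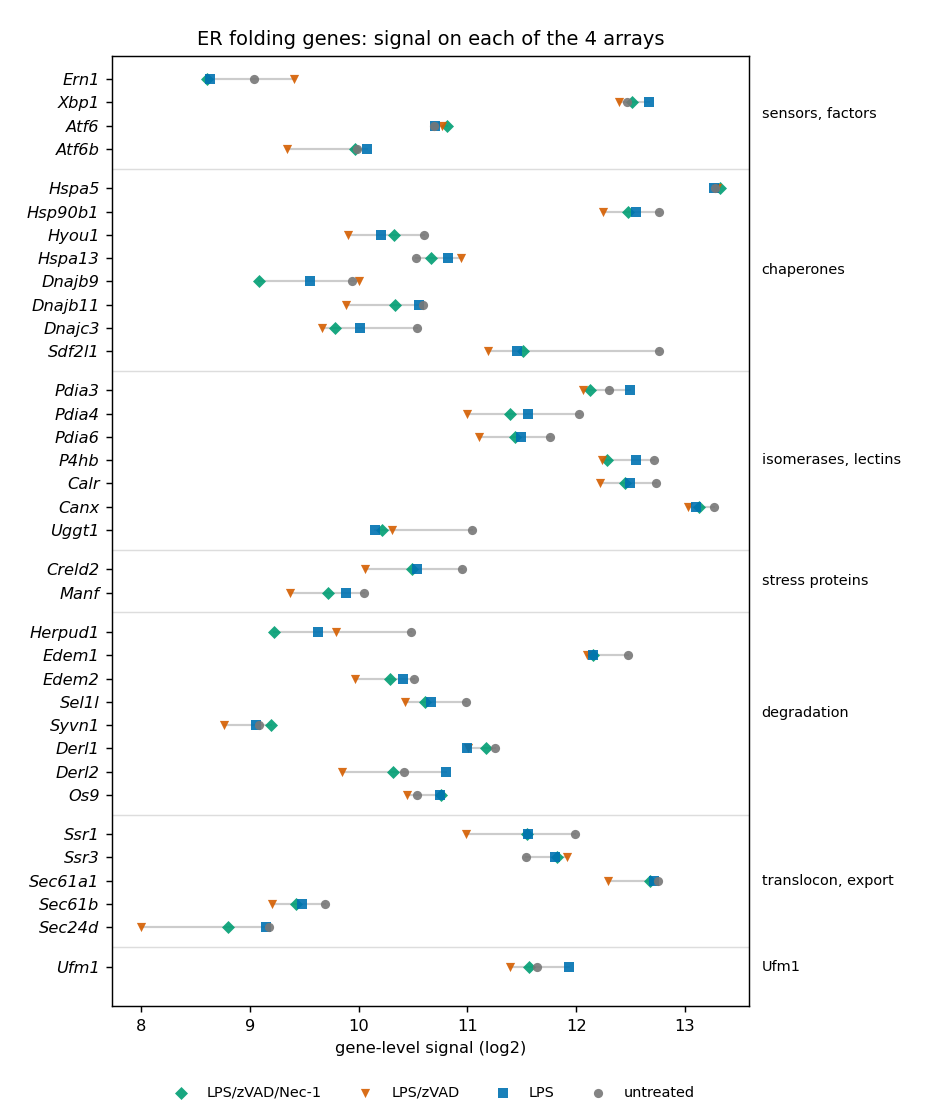
Log2 gene-level signal (horizontal axis) of each of the 35 members on the 4 single arrays (LPS/zVAD/Nec-1, LPS/zVAD, LPS and untreated), grouped by role, with a grey line over each gene's range. The LPS/zVAD symbol is the lowest of the 4 for 26 members, and the 4 symbols of Hspa5 lie within 0.05 of each other.

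LPS alone was set against untreated cells to describe the response to LPS. Of the 35 members 1 was at least 2-fold lower and 0 were higher, while 7.2% of all filtered genes were lower and 8.24% higher. The single lower member was Sdf2l1, which encodes an ER protein that works with DnaJ cochaperones of BiP. Its log2 signal was 11.51 with LPS/zVAD/Nec-1, 11.19 with LPS/zVAD, 11.45 with LPS and 12.76 in untreated cells. The 3 arrays with LPS thus lay close together and well under the untreated array. The log2 ratio of LPS to untreated was -1.31, or 2.48-fold lower with LPS. The Sdf2l1 promoter window held no full ERSE, ERSE-II or UPRE, but 3 separate copies of CCACG, which 40.4% of coding genes hold at least once. The window is shown because this gene had the largest range of all members; each CCACG, all on the opposite strand, is in capitals as CGTGG.
Sdf2l1, chr16:17132334-17132633, minus strand: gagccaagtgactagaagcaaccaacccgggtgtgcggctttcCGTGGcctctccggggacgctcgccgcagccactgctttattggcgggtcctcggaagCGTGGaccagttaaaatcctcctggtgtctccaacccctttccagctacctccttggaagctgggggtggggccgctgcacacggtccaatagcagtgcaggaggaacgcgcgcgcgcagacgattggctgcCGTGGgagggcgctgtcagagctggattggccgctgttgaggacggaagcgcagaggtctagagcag

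The next members in size were under 2-fold. Uggt1 encodes the glucosyltransferase that tags unfolded glycoproteins for another round of folding. Its signal was 10.22 with LPS/zVAD/Nec-1, 10.30 with LPS/zVAD, 10.15 with LPS and 11.04 in untreated cells, and its log2 ratio of LPS to untreated was -0.89. As with Sdf2l1, the arrays with LPS lay together under the untreated one. Herpud1 encodes a membrane protein that organises the degradation complex and is a known target of the unfolded protein response. It stood at 9.22 with LPS/zVAD/Nec-1, 9.79 with LPS/zVAD, 9.63 with LPS and 10.48 in untreated cells. Its log2 ratio was -0.85 for LPS against untreated, and -1.26 for LPS/zVAD/Nec-1 against untreated. These 3 genes were the only members at least 1.5-fold lower with LPS, 3 of 35 against 17.3% of all filtered genes. No member was 1.5-fold higher, against 14.4% of all filtered genes. The cochaperone gene Dnajc3, whose product assists BiP, followed at -0.53, and the isomerase gene Pdia4 at -0.46.

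Herpud1 was also 1 of the 2 members with an ERSE-II. Its promoter window is shown with that element, and a further CCACG, in capitals.
Herpud1, chr8:94386179-94386478, plus strand: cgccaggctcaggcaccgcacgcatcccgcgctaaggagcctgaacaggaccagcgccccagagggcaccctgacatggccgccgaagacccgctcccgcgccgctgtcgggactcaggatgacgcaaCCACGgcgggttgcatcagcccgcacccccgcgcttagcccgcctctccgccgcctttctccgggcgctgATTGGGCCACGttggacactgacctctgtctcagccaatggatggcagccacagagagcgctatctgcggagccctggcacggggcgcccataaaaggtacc

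The classical chaperones of the lumen named here differed by under 1.5-fold with LPS. The 8 genes of chaperones and cochaperones, Sdf2l1 among them, had a median log2 ratio of -0.30, beside -0.17 for all 35 members. Hspa5 encodes BiP, the main chaperone of the ER lumen. It had signals of 13.32 with LPS/zVAD/Nec-1, 13.30 with LPS/zVAD, 13.27 with LPS and 13.28 in untreated cells. No array stood apart, and the log2 ratio of LPS to untreated was -0.01. These signals lie toward the top of the array range (14.55 to 14.63 on the 4 arrays), where ratios can be compressed, and compression was not tested. Hsp90b1, which encodes GRP94, had a log2 ratio of -0.21, Hyou1, a large chaperone of the lumen that exchanges nucleotide on BiP, one of -0.39, and Calr (calreticulin) one of -0.24. Within these windows Hspa5 holds 1 ERSE match and Hsp90b1 holds 2. The Hspa5 window is shown as that of a classical target of the response, with the ERSE match in capitals.
Hspa5, chr2:34771840-34772139, plus strand: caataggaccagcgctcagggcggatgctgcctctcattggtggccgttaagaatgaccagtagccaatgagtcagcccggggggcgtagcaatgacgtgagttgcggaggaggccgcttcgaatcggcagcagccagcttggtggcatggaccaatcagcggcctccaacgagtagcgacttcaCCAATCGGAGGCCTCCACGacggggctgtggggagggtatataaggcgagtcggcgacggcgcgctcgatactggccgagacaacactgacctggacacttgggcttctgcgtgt

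Members above 0 with LPS were few and small. They were 9 of 35. The other 26 (74.3%) lay under 0, against 60.1% of all filtered genes and 49.2% of those in the members' signal range. The count of members under 0 was 21 with centred arrays, 23 with cyclic loess and 27 with quantile normalization. The members above 0 were led by Derl2, a membrane protein of the degradation channel, at 0.39, and Hspa13 at 0.29. Ufm1, a ubiquitin-like modifier, followed at 0.29, and the translocon-associated Ssr3 at 0.26. Xbp1 stood at 12.52 with LPS/zVAD/Nec-1, 12.39 with LPS/zVAD, 12.67 with LPS and 12.47 in untreated cells, so its log2 ratio to untreated with LPS was 0.20. Atf6 had a ratio of 0.01 and Atf6b, its close relative, one of 0.08. The 35 members had a median log2 ratio of -0.17 for LPS against untreated, beside -0.12 for all filtered genes and 0.01 for the filtered genes in the members' signal range. Centring each array on its median moved these medians to -0.06 for the members and -0.01 for all filtered genes. The members' median minus that of all filtered genes was -0.05 as deposited and with centred arrays, which shifts all genes of an array alike. It was -0.18 with quantile normalization, -0.15 with cyclic loess and -0.14 with the filter at the 75th percentile of all values, so the size of this gap depends on the scaling and the filter.

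**Figure D2:**
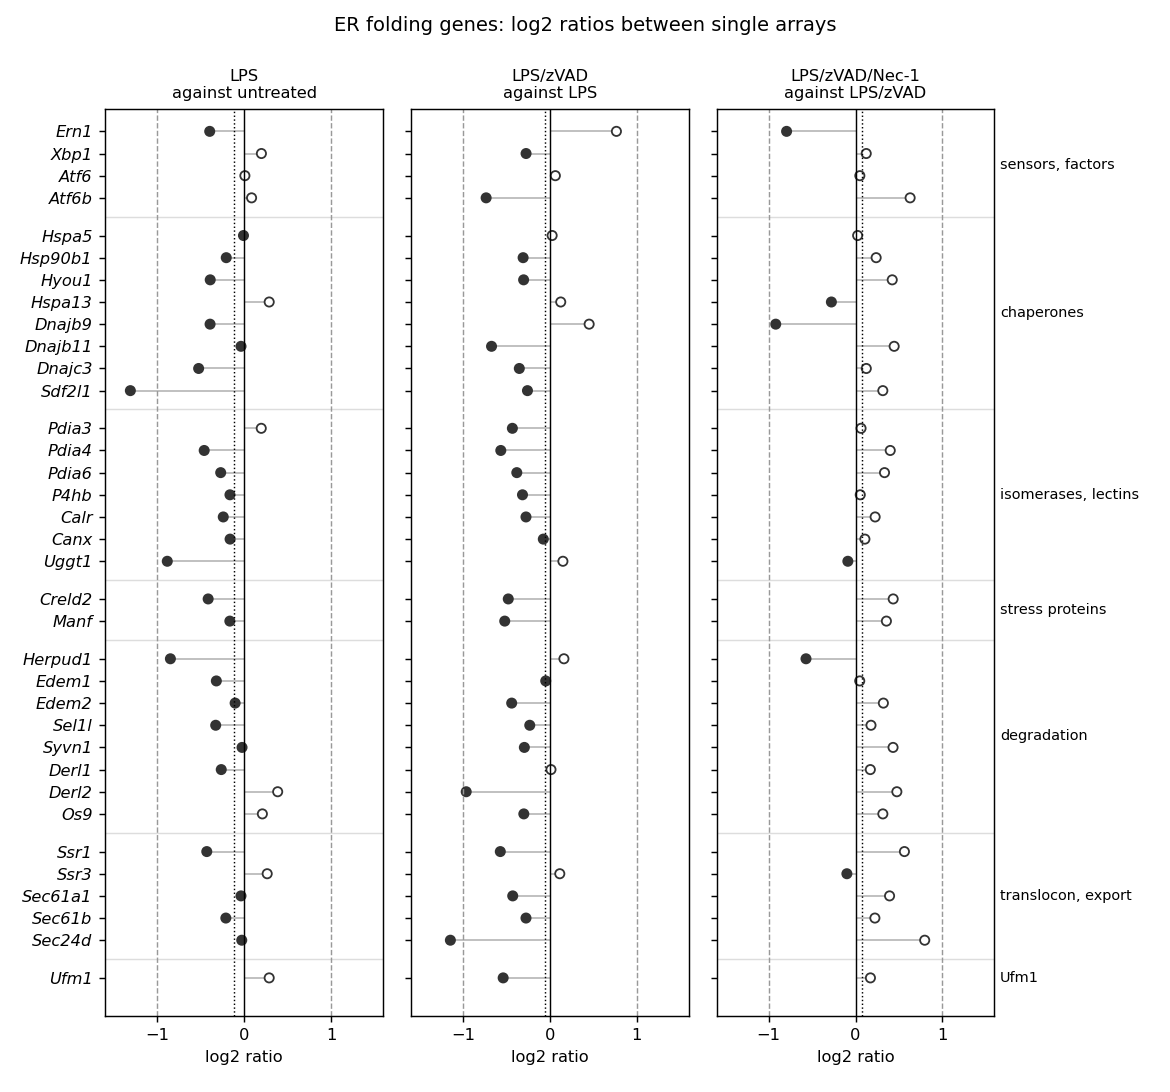
Log2 ratios (horizontal axis) of the 35 members between single arrays for LPS against untreated, LPS/zVAD against LPS and LPS/zVAD/Nec-1 against LPS/zVAD. Filled points lie below 0 and open points at or above 0, dashed lines mark 2-fold, and the dotted line is the median of all filtered genes. Sdf2l1 (-1.31) in the first panel and Sec24d (-1.15) in the second are the 2 points past 2-fold.

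The LPS/zVAD array was then set against LPS alone, for what the caspase inhibitor added. Here 26 of the 35 members had a log2 ratio under 0. Of all filtered genes 55.1% did, and of those in the members' signal range 62.7%. The members' median was -0.30, beside -0.05 for all filtered genes and -0.14 for those in the members' signal range. The differences were mostly under 1.5-fold. By the 2-fold rule 1 member was lower and 0 were higher, against 3.59% and 3.25% of all filtered genes. By 1.5-fold, 4 were lower and 1 higher, against 13.2% and 7.96%. With counts this small, no difference in share between the members and all filtered genes was read. With centred arrays 2 members were at least 2-fold lower, against 510 of 12167 filtered genes.

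The member past 2-fold was Sec24d, a cargo-binding subunit of the COPII coat that carries folded proteins out of the ER. Its log2 signal was 8.80 with LPS/zVAD/Nec-1, 8.0 with LPS/zVAD, 9.15 with LPS and 9.18 in untreated cells. The LPS/zVAD array stood apart below the other 3, and its log2 ratio to LPS was -1.15, or 2.21-fold lower. Sec24d was also the single member with a UPRE. Its window is shown with that element in capitals.
Sec24d, chr3:123267246-123267545, plus strand: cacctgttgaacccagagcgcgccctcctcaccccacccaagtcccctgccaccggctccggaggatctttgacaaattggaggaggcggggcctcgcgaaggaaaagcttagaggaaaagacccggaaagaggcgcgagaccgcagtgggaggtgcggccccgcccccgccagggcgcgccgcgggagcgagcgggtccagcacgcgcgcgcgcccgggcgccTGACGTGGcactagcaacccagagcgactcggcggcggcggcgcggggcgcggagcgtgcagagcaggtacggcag

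Most genes of ER-associated degradation lay under 0, and paralogs differed in the size of the ratio. Derl2 stood at 10.32 with LPS/zVAD/Nec-1, 9.84 with LPS/zVAD, 10.81 with LPS and 10.42 in untreated cells, a log2 ratio of LPS/zVAD to LPS of -0.96. Its paralog Derl1 had a ratio of 0.01 in the same comparison. Edem2, which takes part in trimming mannose from misfolded glycoproteins, had one of -0.44 and Edem1, of the same family, one of -0.05. The lectin gene Os9, the ubiquitin ligase gene Syvn1 (HRD1) and its partner Sel1l had ratios of -0.30, -0.29 and -0.23. Herpud1 was at 0.16. In all 6 of the 8 degradation genes lay under 0, and the median of the 8 was -0.26.

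The isomerases, the translocon and the secreted stress proteins lay under 0 almost throughout. Of 7 genes of the disulfide isomerase and lectin cycle 6 did, with Pdia4 at -0.57, Pdia3 at -0.43, Pdia6 at -0.38, P4hb (the classical protein disulfide isomerase) at -0.32, Calr at -0.28 and Canx (calnexin) at -0.08. Uggt1 was the exception at 0.15. Pdia4 had signals of 11.40 with LPS/zVAD/Nec-1, 11.0 with LPS/zVAD, 11.56 with LPS and 12.02 in untreated cells. It was thus lowest with LPS/zVAD, and 2.04-fold lower there than in untreated cells. Creld2 and Manf, small proteins secreted under ER stress, had ratios of -0.48 and -0.52. In the translocon Ssr1, a subunit of the translocon-associated complex, stood at -0.57, the channel gene Sec61a1 at -0.43 and Sec61b at -0.28, while Ssr3 of the same complex was at 0.11. Of the cochaperones Dnajb11 (ERdj3) was at -0.67 and Dnajc3 at -0.35. Set against untreated cells directly, LPS/zVAD had 4 members at least 2-fold lower (Sdf2l1, Sec24d, Pdia4 and Ssr1) and 0 higher, against 10.7% and 8.79% of all filtered genes. By 1.5-fold 13 of the 35 were lower and 0 higher, against 3009 and 1753 of the 12203 filtered genes. The members' median log2 ratio was -0.52, beside -0.14 for all filtered genes and -0.12 for those in the members' signal range. Of the 35 ratios 29 lay under 0, against 61.8% of all filtered genes.

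The sensor gene Ern1 and the cochaperone gene Dnajb9 lay on the other side. Ern1 encodes the sensor IRE1. Its signal was 8.61 with LPS/zVAD/Nec-1, 9.40 with LPS/zVAD, 8.64 with LPS and 9.03 in untreated cells. The LPS/zVAD array was the highest, and its log2 ratio to LPS was 0.77, or 1.70-fold higher, the highest ratio among the members. Dnajb9 (ERdj4), which holds IRE1 in its inactive form together with BiP and is a known XBP1 target, stood at 9.08 with LPS/zVAD/Nec-1, 10.00 with LPS/zVAD, 9.55 with LPS and 9.94 in untreated cells. Its log2 ratio of LPS/zVAD to LPS was 0.45. Atf6b went the opposite way, at 9.97 with LPS/zVAD/Nec-1, 9.34 with LPS/zVAD, 10.07 with LPS and 9.99 in untreated cells. For this gene LPS/zVAD alone stood apart, and the ratio to LPS was -0.73. Xbp1 and Atf6 had ratios of -0.27 and 0.06.

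The LPS/zVAD/Nec-1 array was set against LPS/zVAD, for what Nec-1 added. Dependence on RIPK1 kinase activity was not tested. No member was 2-fold higher or lower than with LPS/zVAD, against 1.14% and 3.32% of all filtered genes. By 1.5-fold 2 were higher, Sec24d at 0.80 and Atf6b at 0.63, and 2 were lower, Dnajb9 at -0.92 and Ern1 at -0.79, against 7.31% and 8.19% of all filtered genes. The next ratios in size were those of Herpud1 at -0.57, Ssr1 at 0.56 and Derl2 at 0.48. The members' median was 0.22, beside 0.07 for all filtered genes and 0.08 for those in the members' signal range, and 6 members lay under 0, against 40.2% of all filtered genes (Dnajb9, Ern1, Herpud1, Hspa13, Ssr3 and Uggt1). This comparison shares the LPS/zVAD array with the preceding one. A high or low value on that single array gives opposite ratios in both, so neither bears out the other.

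LPS/zVAD/Nec-1 against LPS alone does not use that array. In this comparison no member was 2-fold or 1.5-fold apart. Of all filtered genes 0.0738% were 2-fold higher and 0.541% lower, and 0.738% and 2.75% were 1.5-fold higher and lower. The 35 ratios ran from -0.49 (Derl2) to 0.18 (Derl1), with a median of -0.053. The median was -0.02 for all filtered genes and -0.055 for those in the members' signal range. Of the 35 ratios 25 lay under 0, against 54.4% of all filtered genes. Among those in the members' signal range 63.2% did. That count of members was 31 with centred arrays, 17 with quantile normalization and 16 with cyclic loess. Besides Derl2, the lowest were Dnajb9 at -0.47, Herpud1 at -0.41, Pdia3 at -0.37 and Ufm1 at -0.37. Dnajb9 thus had its lowest signal of the 4 arrays with LPS/zVAD/Nec-1, as did Herpud1 and, by 0.03 under LPS alone, Ern1. Set against untreated cells, LPS/zVAD/Nec-1 had 2 members at least 2-fold lower (Sdf2l1 and Herpud1) and 0 higher, against 7.68% and 6.85% of all filtered genes.

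The members with an ERSE or ERSE-II match were set beside the other members with a promoter window. The 10 genes with a match had a median log2 ratio of -0.22 for LPS against untreated, with all 10 under 0. The other 19 had one of -0.16, with 12 under 0. Of all filtered genes 60.1% lay under 0 in this comparison. For LPS/zVAD against LPS the medians were -0.30 in both. For LPS/zVAD/Nec-1 against LPS/zVAD they were 0.23 and 0.18. The ranges of the 2 groups overlapped in each comparison, and no test was made.

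**Figure D3:**
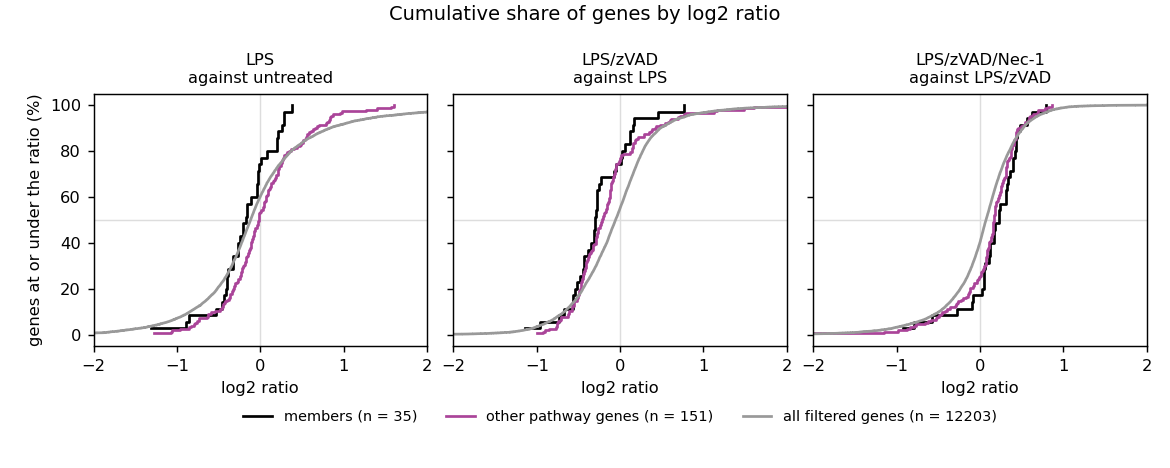
Cumulative share of genes (vertical axis, percent) at or under each log2 ratio (horizontal axis) in 3 comparisons of single arrays, for the 35 members, 151 other measured genes of the pathway and the 12203 filtered genes; ratios beyond 2 either way are outside the axis. In the middle panel the members' median lies at -0.30, against -0.05 for all filtered genes. Of the members 1 is at least 2-fold lower and 0 are higher, against 3.59% and 3.25% of all filtered genes.

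Other genes of the pathway were taken from 9 further lists, of which 151 genes were measured and 144 passed the filter. For LPS/zVAD against LPS, 116 of the 151 lay under 0, against 55.1% of all filtered genes. Their median was -0.21, beside -0.30 for the members and -0.05 for all filtered genes. In this comparison 5 of the 151 were at least 2-fold higher (Ppp1r15a, Tmx4, Chac1, Atf4 and Retreg1) and 0 lower. Of all filtered genes 3.25% were higher and 3.59% lower. The list medians were -0.27 for 30 genes of the translocon, signal peptidase and glycosyltransferase, -0.27 for 16 genes of the COPII coat, -0.28 for 11 of glycan trimming, -0.30 for 16 of oxidation and further isomerases, -0.24 for 23 further degradation genes, -0.25 for 12 membrane-bound factors and proteases, -0.14 for 22 folding factors and -0.12 for 11 of ufmylation and ER-phagy. Sec23a, the inner coat partner of Sec24 proteins, stood at 10.78 with LPS/zVAD/Nec-1, 10.00 with LPS/zVAD, 11.0 with LPS and 10.32 in untreated cells, a ratio of LPS/zVAD to LPS of -0.999 that fell just short of the threshold. For LPS against untreated 4 of the 151 were higher (Ppp1r15b, Traf2, Ddit3 and Ppp1r15a) and 3 lower (Eif2ak3, Cnpy3 and Cnpy4). The shares of all filtered genes were 8.24% and 7.2%, and the median of the 151 was -0.02. For LPS/zVAD/Nec-1 against LPS/zVAD 0 of the 151 were higher and 2 lower (Ppp1r15a and Tmx4). The shares of all filtered genes were 1.14% and 3.32%, and the median of the 151 was 0.17.

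The PERK branch, the third arm of the response, was the single list with a median above 0 for LPS/zVAD against LPS, at 0.65 over 10 genes. PERK reduces translation by phosphorylating the initiation factor eIF2, which favours translation of the factor ATF4. Other kinases act on eIF2 as well, so these genes are not specific to ER stress. Ppp1r15a, which encodes GADD34, a subunit of the phosphatase that reverses this step, stood at 9.32 with LPS/zVAD/Nec-1, 11.90 with LPS/zVAD, 8.65 with LPS and 7.38 in untreated cells. It was 9.46-fold higher with LPS/zVAD than with LPS and 5.97-fold lower with LPS/zVAD/Nec-1 than with LPS/zVAD. Chac1, an enzyme that degrades glutathione and an ATF4 target, was 2.81-fold higher and Atf4 2.24-fold higher with LPS/zVAD than with LPS. Ddit3, which encodes CHOP, stood at 9.45 with LPS/zVAD/Nec-1, 9.81 with LPS/zVAD, 9.33 with LPS and 7.94 in untreated cells. The PERK gene itself, Eif2ak3, stood at 7.25, 7.10 and 7.42 on the arrays with LPS/zVAD/Nec-1, LPS/zVAD and LPS, against 8.70 in untreated cells. LPS/zVAD was the highest array for 8 of these 10 genes, all but Eif2ak3 and Ppp1r15b. Among the 35 members it was the highest for 4, namely Ern1, Dnajb9, Hspa13 and Ssr3, against 20.7% of all filtered genes.

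**Figure D4:**
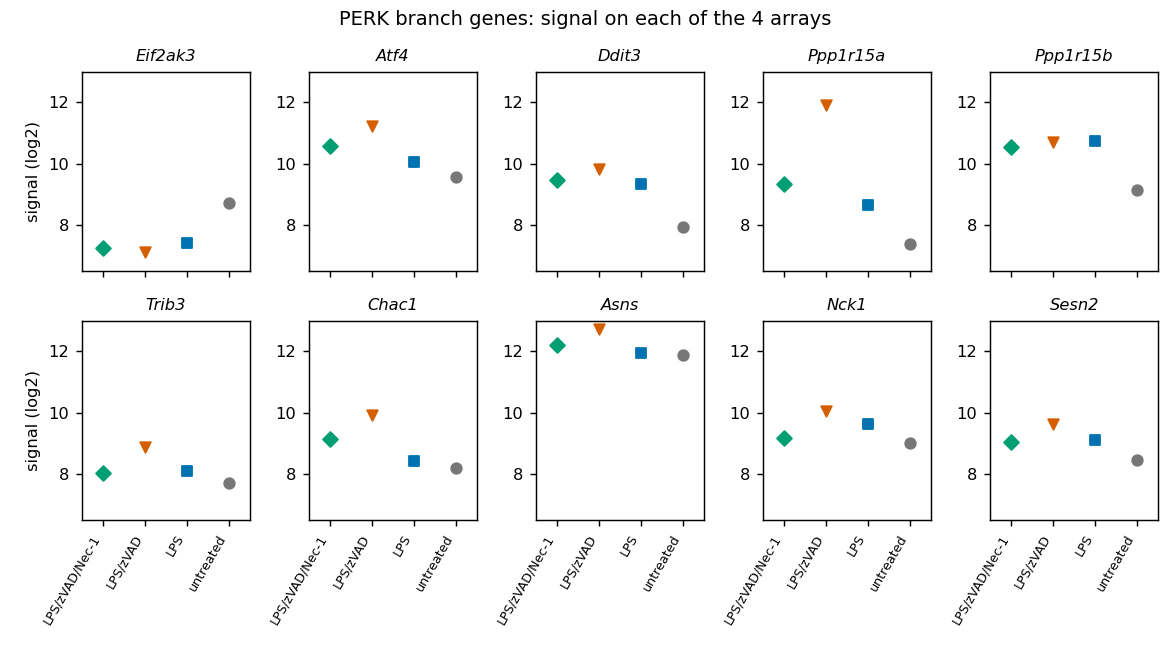
Log2 gene-level signal (vertical axis) of 10 genes of the PERK branch on the 4 single arrays, from left to right LPS/zVAD/Nec-1, LPS/zVAD, LPS and untreated. Ppp1r15a reaches 11.90 with LPS/zVAD, and Eif2ak3 is highest in untreated cells, at 8.70.

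Of the 35 members 4 had more than 1 probe with a single symbol. The 2 probes of Dnajc3 carried identical values, so they add nothing to each other. The 3 probes of Sec61b gave log2 ratios of LPS/zVAD to LPS of -0.28, -0.44 and -0.33, and ratios of LPS to untreated of -0.21, 0.04 and -0.07. The second probes of Pdia4 and Ufm1 had signals of 4.78 to 5.25 and 3.90 to 4.09 on the 4 arrays, under the filter level, and were not read further.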

How the data were processed

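RNA of mouse bone-marrow-derived macrophages was hybridised to Affymetrix arrays, 1 for each of 4 conditions, and samples were grouped by their titles. The deposited values are gene-level signals, and their range shows the scale to be log2. As the tool, the submitters' processing notes name Expression Console of Affymetrix. The labels state neither the software version nor how background, summarisation and scaling between arrays were handled, and name no genome build. Precision is limited by how few arrays there are.

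Of 35556 probes, 21789 had 1 symbol, 1621 several and 12146 none in the platform annotation; those with several or none were not named. RefSeq (GRCm38.p6) held the gene identifier of 21698 and changed 0 symbols. A gene took its probe with the highest mean, and passed if its highest signal reached log2 6.47, the median of all values. Comparisons were differences of log2 signals between single arrays, called at 2-fold, with 1.5-fold beside it, and no test was possible. The members and lists were chosen with earlier results of these data known. The 9 further pathway lists held 158 genes, of which 151 were measured, 7 by an older symbol; 2 symbols that name other genes than meant (Nrf1 and Eif2a) were left out for that reason alone. Named were members at least 2-fold apart, then those with the largest ratios in each role, and list genes at least 2-fold apart; Sec23a and others just under it were chosen after their values were seen.

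Array centring, quantile and cyclic loess normalization (limma 3.58.1, R 4.3.3), the mean of a gene's probes, other filters and a 1.5-fold threshold were tried. The calling code was run on simulated data, the untreated signals with planted changes and an assumed noise. That run checks the code only and does not measure error between these arrays. Other steps used Python 3.11.15 and pandas 2.3.3.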

Additional observations from a re-analysis of the deposited data

How the results depend on the processing

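With 1 array per condition, nothing here measures error between samples, and no paired analysis was possible because each group holds a single array. The scalings moved small ratios. Centred arrays gave a median log2 ratio of the members of -0.063 for LPS against untreated (-0.17 as deposited) and 2 members at least 2-fold lower for LPS/zVAD against LPS, since Derl2 reached -1.01 beside Sec24d. Quantile normalization gave 2 members lower for LPS against untreated, since Uggt1 reached -1.03 beside Sdf2l1. The members' median for LPS/zVAD/Nec-1 against LPS was -0.05 as deposited, 0.0102 with quantile normalization and 0.0085 with cyclic loess, a change of sign. With a 1.5-fold threshold, LPS against untreated had 3 members lower; LPS/zVAD against LPS had 1 higher and 4 lower; LPS/zVAD/Nec-1 against LPS/zVAD had 2 higher and 2 lower. The cause of the shifts between scalings was not tested. The members' median for LPS/zVAD against LPS ran from -0.35 (centred) to -0.20 (cyclic loess), beside -0.10 and -0.01 for all filtered genes. Sdf2l1 for LPS against untreated and Sec24d for LPS/zVAD against LPS (-1.01 at the smallest, with quantile normalization) stayed past 2-fold under every alternative run. The other counts of members at 2-fold and their other medians moved by under 0.1 on the log2 scale or within 1.5 times. The count of members under 0 for LPS/zVAD/Nec-1 against LPS, 25 as deposited, ran from 16 (cyclic loess) to 31 (centred). Of the ratios of the named genes under these alternatives, 19 moved by 0.1 or more or crossed 2-fold (Derl2 and Uggt1, above), 89 did neither, and none of these changed sign. All 19 came from the 3 other scalings. A filter cannot alter a gene's own ratio, and the mean of a gene's probes left each of these ratios unchanged. Many of the 89 were thus fixed in advance and say nothing of stability. The split of all filtered genes for LPS/zVAD against LPS, 47.5% of calls in the higher direction as deposited, was 57.8% with quantile normalization and 59.7% with cyclic loess. For the count of members lowest with LPS/zVAD, which was chosen after seeing the data, 26 of 35 became 27 with centred arrays and 23 with cyclic loess.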
